A study of Mus musculus with 6 samples.

Results

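Type I interferon response genes were described in brain myeloid cells as a named set of 44 genes that cells switch on after interferon-α or interferon-β binds its receptor. The members were found by their symbols, and 43 of the 44 were present among the 32285 genes counted. *Mx1* was not analysed here. The cells came from the brains of 3 male C57BL/6J mice at postnatal day 89, dissociated by cold Dounce homogenization with the meninges removed as far as possible, and sorted as live CD45+ CD11b+ cells. Mouse 2 was processed with a cocktail of transcriptional and translational inhibitors (actinomycin D, triptolide and anisomycin), called DNC-INHIB, while mice 1 and 3 were processed without inhibitors, called DNC-NONE. Cells of each mouse were captured with both the V3.0 and the V3.1 chemistry of the 10X Chromium 3′ kit, which gave 6 libraries, 3 per kit. The labels name no transgene and no interferon treatment, so the values describe a baseline. Because 1 mouse had the inhibitors, the inhibitors and that animal cannot be told apart.

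Type I interferons bind the receptor formed by *Ifnar1* and *Ifnar2*, whose kinases *Jak1* and *Tyk2* phosphorylate *Stat2*. The phosphorylated protein joins *Irf9* in a complex that binds interferon-stimulated response elements (ISRE) near its target genes. The targets include antiviral effectors (the *Ifit*, *Oas* and *Slfn* genes, *Rsad2*, *Bst2*, *Ifitm3*), sensors of foreign RNA and DNA (*Ifih1*, *Dhx58*, *Zbp1*), the secreted chemokine *Cxcl10*, the transcription factor *Irf7* that amplifies the response, and *Usp18*, which restrains it by removing the ubiquitin-like protein ISG15 from its targets and blocking the receptor. In the brain, microglia that express these genes together have been described in ageing, infection and injury.

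The promoter windows of members that carried the results below were read from RefSeq (GRCm38.p6), with the gene's sense strand printed 5′ to 3′. A promoter sequence was found for 35 of the 44 members. The letters GAAANNGAAA, the core of an ISRE, were searched on both strands in the 250 bases before each start, and overlapping matches were kept. Capitals mark each match, which reads TTTCNNTTTC when it lies on the other strand. *Ifit1*, *Ifit3* and *Ifit3b* are shown because their UMIs defined the cells examined below, and *Isg15* and *Rsad2* because they rose with them. *Cxcl10* and *Ifi207* are shown because they were called higher in the DNC-INHIB mouse, and *Bst2* because it was the most abundant member. Only promoters with a match are shown. The same reasons would cover *Ifit2* and *Ifitm3*, whose promoters held no match.
Ifit1: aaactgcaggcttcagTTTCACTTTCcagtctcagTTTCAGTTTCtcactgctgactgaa
Ifit3: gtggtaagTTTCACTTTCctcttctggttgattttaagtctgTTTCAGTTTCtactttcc
Isg15: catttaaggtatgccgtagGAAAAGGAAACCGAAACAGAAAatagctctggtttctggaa
Rsad2: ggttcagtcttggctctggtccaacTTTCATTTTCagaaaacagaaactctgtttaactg
Cxcl10: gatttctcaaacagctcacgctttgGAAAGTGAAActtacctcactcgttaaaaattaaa
Ifi207: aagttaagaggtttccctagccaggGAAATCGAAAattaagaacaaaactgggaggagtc
Bst2: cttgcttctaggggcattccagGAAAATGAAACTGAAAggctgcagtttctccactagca

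These windows lie at chr19:34640769-34640828 (plus strand, *Ifit1*), chr19:34583365-34583424 (plus, *Ifit3*), chr4:156200856-156200915 (minus, *Isg15*), chr12:26456538-26456597 (minus, *Rsad2*), chr5:92349068-92349127 (minus, *Cxcl10*), chr1:173741816-173741875 (minus, *Ifi207*) and chr8:71537565-71537624 (minus, *Bst2*). The window of *Ifit3b*, at chr19:34607761-34607820 (plus), matched that of *Ifit3* in 60 of 60 bases. The 5′ ends of the matches lay 104 and 85 bases before the start of *Ifit1*, 156 and 122 before that of *Ifit3*, 78, 72 and 66 before that of *Isg15*, and 41 before that of *Ifi207*. In all, 18 of the 35 member promoters (51.4%) held these letters, beside 936 of 27025 promoters of all genes (3.46%). The letters of a gamma-activated site, TTCNNNGAA, were found in 4 of 35 (11.4%) beside 8.13% of all promoters. The 4 *Ifit* genes are neighbours on the plus strand, from the start of *Ifit2* at position 34550694 to the end of *Ifit1* at position 34650009 of chromosome 19, and the 3 *Slfn* members (chromosome 11), the 3 *Gbp* members (chromosome 3) and the 5 *Oas* and *Oasl* members (chromosome 5) also lie in families. A match is a description of the letters, and no binding was measured here.

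The 6 libraries held 29412 barcodes and 83133615 unique molecular identifiers (UMIs, one per captured mRNA molecule). Of these barcodes 19725 passed the filters on genes, UMIs and mitochondrial share, and marker genes that include no interferon response gene put 18737 of them among microglia, 54 among border macrophages (macrophages of the meninges and perivascular spaces), 278 among neutrophils and 196 among monocytes. The V3.0 library of mouse 3 stood apart, as 21.5% of its barcodes passed against 70.0 to 76.8% in the others, and it gave 905 of the microglia. Libraries shared 1 to 14 cell barcodes per pair. Levels are given as CPM, the UMIs of a gene per 1000000 UMIs of the class, from UMIs summed over its cells in a library or mouse. The sums of the marker lists describe the gates and are no independent check, since the same markers set the classes. The 8 border macrophage markers summed to 9.81 CPM in microglia against 4955.9 CPM in border macrophages. The microglial markers summed to 14120.8 CPM in microglia, 1147.72 CPM in border macrophages and 71.5 CPM in neutrophils. The 6 monocyte markers were less specific, summing to 5779 CPM in monocytes, 3384.5 CPM in neutrophils and 223 CPM in border macrophages. *S100a8*, an abundant neutrophil gene that gauges free RNA carried into droplets, had a UMI in 69.2% of microglia at 0.204% of its neutrophil level.

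Most type I interferon response genes were detected at low levels in microglia, and few were abundant. Over the 43 members the mean level ran from 0.190 to 173 CPM with a median of 16.5 CPM, and 11 members had a UMI in at least 10% of microglia. At the other end, *Oas3* had 15 UMIs in all microglia, *Oasl1* 28 and *Ifi44* 37. In every library 40 members had a microglial UMI, the exceptions being these 3 genes.

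The most abundant members were *Bst2*, *Trim30a* and *Lgals3bp*. *Bst2*, which encodes tetherin, the membrane protein that holds budding virus on the cell, lay between 157 and 188 CPM (median 176 CPM) with a UMI in 40.9% of microglia. *Trim30a*, a TRIM-family ubiquitin ligase gene, lay between 110.2 and 125 CPM (median 119.8 CPM), with a UMI in 31.3%. *Lgals3bp*, which encodes a secreted galectin-binding glycoprotein, lay between 79.9 and 107 CPM (median 99.7 CPM). Their libraries thus stayed within a narrow range, and no library of *Bst2* fell as low as any library of *Trim30a* or *Lgals3bp*.

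The next 7 were the mono-ADP-ribosyltransferase gene *Parp14* (74.8 to 93.3 CPM, median 84.0 CPM), the guanylate-binding GTPase gene *Gbp7* (68.9 to 84.2 CPM, median 77.8 CPM), the Schlafen genes *Slfn8* (69.6 to 79.5 CPM, median 72.0 CPM) and *Slfn2* (60.1 to 71.1 CPM, median 66.7 CPM), *Irf9* (52.3 to 58.7 CPM, median 56.2 CPM), *Ifi35* (43.0 to 51.6 CPM, median 47.7 CPM) and *Ifi27l2a* (40.4 to 53.7 CPM, median 45.1 CPM). The ranges of *Parp14*, *Gbp7* and *Slfn8* overlapped, as did those of *Ifi35* and *Ifi27l2a*. *Irf9*, the DNA-binding subunit of the interferon-activated complex, had a UMI in 17.0% of microglia, and *Ifi27l2a*, whose level was similar to that of *Ifi35*, had one in 8.67% against 15.2%. These UMIs count mRNA 3′ ends and were not divided by gene length.

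The 4 *Ifit* genes, a family of antiviral effectors, were much rarer. *Ifit3* lay between 10.3 and 29.2 CPM (median 15.7 CPM) with a UMI in 2.88% of microglia. *Ifit2* lay between 3.73 and 13.1 CPM (median 6.20 CPM), *Ifit1* between 3.99 and 9.09 CPM (median 6.80 CPM) and *Ifit3b* between 1.10 and 4.63 CPM (median 2.62 CPM). *Ifit3b* and *Ifit3* are near-identical copies, so reads may have been lost from both. *Isg15*, the ubiquitin-like modifier, lay between 16.7 and 32.6 CPM (median 19.3 CPM), with a UMI in 4.51% of microglia.

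**Figure D1:**
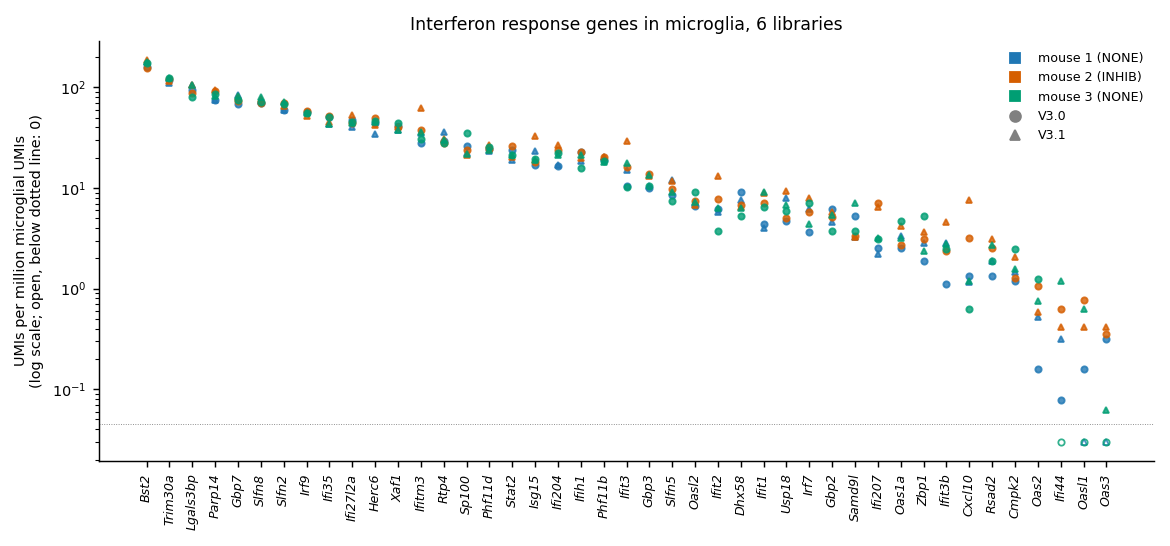
Level of the type I interferon response genes in microglia in CPM on a log axis, 1 point per library, with the colour for the mouse, circles for V3.0 and triangles for V3.1, and open points for levels of 0. Abundant members such as *Bst2* (157 to 188 CPM) had closely spaced libraries, and rare members such as *Cxcl10* (0.622 to 7.61 CPM) were widely spread.

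Spread between libraries was larger for the rarer members. The coefficient of variation over the 6 libraries had a median of 9.71% for the 23 members with a mean of at least 10 CPM and of 34.1% for the other 20, where few UMIs were counted. *Ifit3* (41.9%) and *Ifitm3* (32.6%) spread most among the abundant members, and *Cxcl10* spread most of all at 105%. The 186 microglial UMIs of *Cxcl10* came from 32 cells, and 10 of these cells held 78.5% of them. Summed over the members, the level lay between 1181 and 1367 CPM (median 1245 CPM) by library.

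Detection of the members was next compared between microglia with and without a UMI of *Ifit1*, *Ifit2*, *Ifit3* or *Ifit3b*. To give each cell the same depth, 17981 microglia were thinned to 2000 UMIs and 756 shallower cells were left out. Of the thinned cells 548 had an *Ifit* UMI, 3.02% ± 0.488 (SD, n = 6 libraries), and the shares ran from 2.57% to 3.85% (exact 95% limits of the single libraries from 1.76% to 4.57%, for counting error only). Before thinning the mean share was 4.38%. The V3.0 libraries gave 2.89% ± 0.414 (SD, n = 3) and the V3.1 libraries 3.15% ± 0.609 (SD, n = 3), a difference smaller than the spread within each kit. Averaged over both libraries of a mouse the shares were 3.03%, 3.21% and 2.82% in mice 1, 2 and 3. At the same depth 6 of 278 neutrophils had an *Ifit* UMI (2.16%, exact 95% limits 0.796 to 4.64%) and 5 of 54 border macrophages (9.26%, 3.08 to 20.3%), with median depths before thinning of 5782 and 4220.5 UMIs against 3554 UMIs in microglia. No class here is known to lack these genes, so the share that free RNA gives was not tested for them.

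Cells with an *Ifit* UMI expressed many other members. In each library, *Ifit*-positive microglia had a UMI of 5.2 to 9.92 of the other 39 members on average, against 1.84 to 1.92 in *Ifit*-negative microglia. At least 5 other members were found in 46.5 to 70.8% of positive cells and in 4.69 to 6.82% of negative cells, so the ranges lay far apart in all libraries. The total depth was alike, with library medians of 3379 to 3690 UMIs in positive cells and 3413 to 3744 UMIs in negative cells. Markers of other classes were low in both, with border macrophage markers at 0 to 20.8 CPM in positive and 5.86 to 9.55 CPM in negative cells, and neutrophil markers at 479 to 1459 CPM and 615 to 1368 CPM. Monocyte markers lay at 0 to 36.4 CPM in positive and 10.3 to 19.5 CPM in negative cells. Microglial markers were lower in positive cells in each library, at 10688 to 13909 CPM against 13386 to 14953 CPM, and the cause was not tested.

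Detection was graded. The 17433 microglia without an *Ifit* UMI had a mean of 1.88 other members, the 376 with 1 UMI had 4.78, the 71 with 2 UMIs had 8.28, the 58 with 3 to 5 UMIs had 11.6, and the 43 with at least 6 UMIs had 16.3. At least 10 other members were found in 0.402% of the first of these groups and in 90.7% of the last. In total 228 thinned microglia (1.27%) had at least 10 other members, between 0.824 and 1.86% by library, and 69.3% of these cells had an *Ifit* UMI. The richest cell held UMIs of 27 other members.

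**Figure D2:**
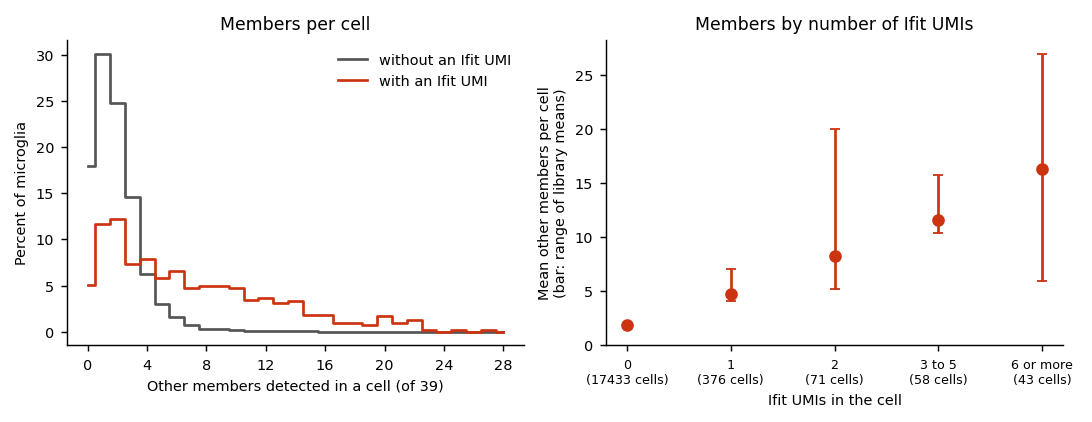
The left panel plots the percent of thinned microglia against the number of other type I interferon response genes (of 39) with a UMI, for cells without and with an *Ifit* UMI. The right panel plots the mean number of those members per cell by the number of *Ifit* UMIs, with bars for the range of library means, and the mean climbs from 1.88 at 0 UMIs to 16.3 at 6 or more.

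Nearly all tested members were higher in *Ifit*-positive microglia. Of the 34 other members with at least 20 UMIs in positive cells, 32 (94.1%) were at least 2-fold higher and higher in every mouse, beside 1.42% of the 6917 genes counted in the same way, and the median fold was 6.16 for the members and 0.991 for all genes. This is a description across cells with no test. The minimum of 20 UMIs favours genes that are high in positive cells, and 5 members (*Oasl1*, *Ifi44*, *Oas2*, *Oas3* and *Gbp3*) fell below it. *Gbp7* (1.57-fold) and *Irf9* (1.50-fold) did not reach 2-fold.

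The highest ratios were those of genes that were rare in the other microglia. *Rsad2*, the gene of viperin, which makes a chain-terminating nucleotide, was 74.7-fold higher (68.5, 109.6 and 54.0-fold in mice 1, 2 and 3), and 70.1% of its UMIs were in the positive cells. *Cxcl10* was 59.9-fold higher, but its ratio of 9.03-fold in mouse 1 was far below the 88.7 and 135-fold of mice 2 and 3. The nucleic acid sensor gene *Zbp1* was 40.5-fold, the nucleotide kinase gene *Cmpk2* 35.6-fold and *Slfn5* 32.2-fold higher. All 5 of these genes were almost undetected in negative cells, at up to 4.93 CPM.

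Regulators and abundant members were also higher, by less. *Usp18* was 25.9-fold, *Isg15* 25.8-fold and *Irf7* 22.3-fold higher. *Isg15* had a UMI in 28.6% of positive and 2.14% of negative cells, and *Ifitm3*, whose product blocks virus entry at endosomes, in 30.3% and 3.79%. *Stat2* was 4.74-fold, *Bst2* 3.55-fold and *Trim30a* 3.35-fold higher. *Bst2* had a UMI in 52.9% of positive and 25.8% of negative cells, and 10.0% of its UMIs were in the positive cells, so most of its microglial RNA came from cells without a detected *Ifit* transcript. Among the tested members, the ratios of those with the ISRE letters had a median of 6.33-fold (13 members, 1.57 to 74.7-fold) and those without them of 5.55-fold (14 members, 1.50 to 35.6-fold), with wide overlap.

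**Figure D3:**
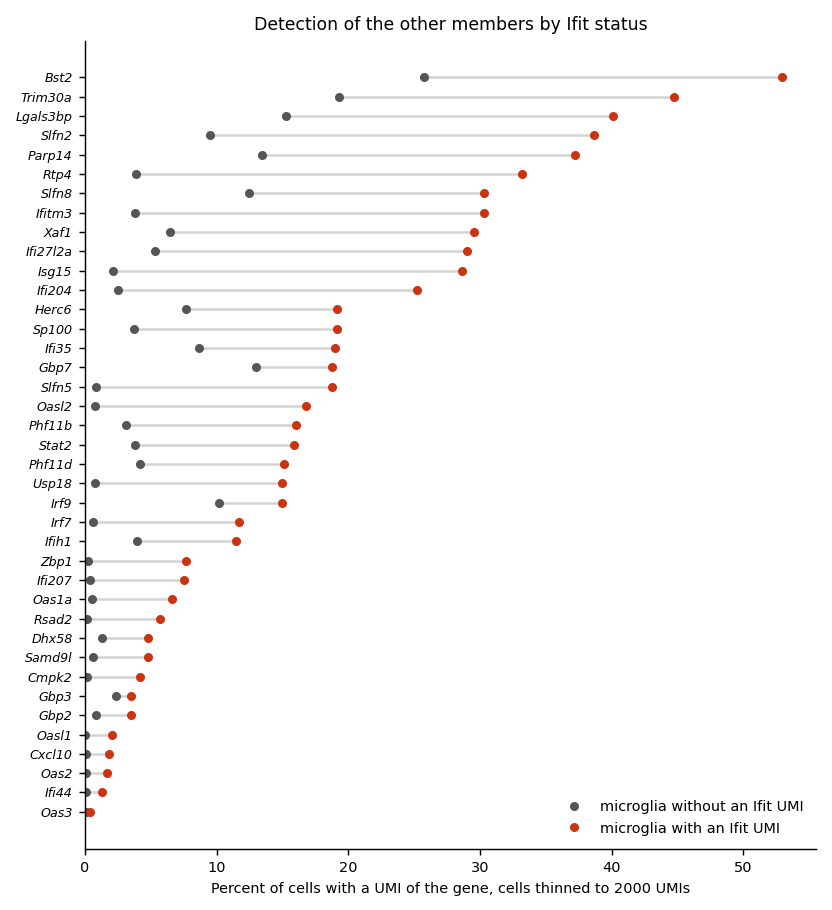
Percent of thinned microglia with a UMI of each of the other 39 members, 1 row per gene, with a grey point for *Ifit*-negative and a red point for *Ifit*-positive cells joined by a line. The red point lies to the right in every row, as for *Bst2* (52.9% against 25.8%) and *Isg15* (28.6% against 2.14%).

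Few of the receptor and sensor genes that act before these targets passed the same rule. Of 18 pathway genes, 15 had enough UMIs, and *Ddx58* (3.18-fold), the gene of the RNA sensor RIG-I and itself an interferon target, was among those that passed. *Ifnar1* was at 1.14-fold, *Ifnar2* at 1.06-fold and *Jak1* at 0.861-fold. Both receptor genes were widely detected in microglia, *Ifnar2* at 302 CPM in 63.3% of cells and *Ifnar1* at 88.3 CPM in 26.6%. Of 23 other interferon-induced genes, 12 of the 19 tested passed (63.2%), led by the immunity-related GTPase gene *Iigp1* (67.2-fold) and the exonuclease gene *Isg20* (9.73-fold), followed by *Ube2l6* (4.16-fold), the conjugating enzyme of ISG15, and *Eif2ak2* (3.60-fold), the gene of the RNA-activated kinase PKR. Of 12 interferon ligand genes, 4 UMIs were counted in all microglia (2 of *Ifng*, 1 of *Ifnab* and 1 of *Ifnk*), and *Ifnb1* had none.

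Genes outside all lists were ranked by the same ratio among those with a UMI in at least 5% of positive cells. The first was *Ifi206* (95.4-fold), of the same gene family as *Ifi204* and *Ifi207*, followed by *Ifi209* (11.3-fold) and the chemokine gene *Ccl12* (8.45-fold, in 31.4% of positive and 11.7% of negative cells). *A930037H05Rik* (7.22-fold), *Gm4951* (7.15-fold), *Ly6a* (6.55-fold), *Trim30c* (5.43-fold), *Fgl2* (4.87-fold), *Prr5l* (4.61-fold) and *Rnf213* (4.56-fold) completed the 10.

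The kits were compared on microglial UMIs summed per library (edgeR quasi-likelihood test, with a gene called at a Benjamini-Hochberg adjusted p below 0.05 and a log2 FC beyond 0.58). The members differed little. *Usp18* lay at 4.71, 5.05 and 5.91 CPM in the V3.0 libraries of mice 1, 2 and 3 and at 7.97, 9.35 and 6.83 CPM in the V3.1 libraries. The kits did not overlap, and it was the 1 member called of 39 tested (2.56%, beside 3.03% of all genes, 1.54% higher and 1.49% lower), with a log2 FC of 0.68 (SE 0.18, edgeR adjusted p = 0.0264). Over the 39 members the median log2 FC was 0.12, against 0.003 over all genes, and 27 were above 0. Of the 18 pathway genes 1 was called, *Tlr9*, the sensor of unmethylated DNA, which was higher in V3.1 (log2 FC 1.74, edgeR adjusted p = 0.00114). None of the 23 other interferon-induced genes was called by edgeR. Of these, 3 had an edgeR adjusted p below 0.05 but did not reach the fold, and 6 had an unadjusted p below 0.05.

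Because each mouse gave a library of both kits, the kits were also compared within mice. With the mouse as a block, 4 members were called, all higher in V3.1, beside 4.58% of all genes. *Ifit3* lay at 10.5, 16.2 and 10.3 CPM in V3.0 and at 15.2, 29.2 and 17.9 CPM in V3.1. The kits overlapped over all mice but V3.1 was higher in each mouse, and the blocked log2 FC was 0.75 (SE 0.107, edgeR adjusted p = 3.86e-05). The others were *Usp18* (log2 FC 0.73), *Ifit3b* (0.94) and *Cxcl10* (0.94), of which *Cxcl10* was slightly lower in V3.1 in mouse 1 (1.15 against 1.33 CPM). The other alternatives were run without the block. With DESeq2 no member was called, 8 being at an unadjusted p below 0.05. In the edgeR fit without the block, *Usp18* lost its call when mouse 1 or mouse 2 was left out, with 0 members then called.

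The DNC-INHIB mouse was compared with the DNC-NONE mice on microglial UMIs summed per mouse. With 1 mouse in that arm its own variation could not be estimated, so it was assumed to vary like the DNC-NONE mice, and the p-values below describe this mouse against those mice and cannot tell the inhibitors from the animal. In this fit *Cxcl10*, *Ifi207*, *Ifit2* and *Ifitm3* were called higher in the DNC-INHIB mouse and no member was called lower, while DESeq2 called none, with 5 members at an unadjusted p below 0.05. The edgeR calls were 4 of 42 members tested (9.52%), beside 0.576% of all genes, 0.364% higher and 0.212% lower. The members' median log2 FC was 0.13 against −0.01 for all genes, and 32 of 42 were above 0.

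*Cxcl10*, the ligand of the lymphocyte receptor CXCR3, lay at 3.15 and 7.61 CPM in the DNC-INHIB libraries (V3.0 and V3.1) against 1.33, 1.15, 0.622 and 1.19 CPM in those of mice 1 and 3. Both libraries of this 1 mouse were above all 4 others, with a log2 FC of 2.15 (SE 0.289, edgeR adjusted p = 0.000216). Of its UMIs, 137 were counted in 19 cells of mouse 2, 28 in 6 cells of mouse 1 and 21 in 7 cells of mouse 3, so the difference rested on few cells. *Ifi207*, of the family of DNA-binding p200 proteins, lay at 7.08 and 6.54 CPM against 2.51, 2.20, 3.11 and 3.20 CPM. Its log2 FC was 1.32 (SE 0.236, edgeR adjusted p = 0.00616), again with no overlap.

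*Ifit2* lay at 7.71 and 13.1 CPM against 6.13, 5.77, 3.73 and 6.27 CPM, with a log2 FC of 0.80 (SE 0.18, edgeR adjusted p = 0.0385). *Ifitm3* lay at 37.6 and 62.7 CPM against 27.8, 34.9, 30.8 and 36.1 CPM, with a log2 FC of 0.59 (SE 0.109, edgeR adjusted p = 0.00775). The lower DNC-INHIB library of both genes was just above the highest DNC-NONE library. *Ifit3* was not called (log2 FC 0.62, edgeR adjusted p = 0.0592). No pathway gene was called, with 2 of 18 at an unadjusted edgeR p below 0.05, and of the 23 other interferon-induced genes *Ifitm2* was higher (log2 FC 1.08, edgeR adjusted p = 0.00777).

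Without the V3.0 library of mouse 3, 2 members were called, *Cxcl10* and *Ifi207*. When microglia with an *Ifit* UMI were left out, *Cxcl10* had a log2 FC of 1.11 (edgeR adjusted p = 0.627), *Ifitm3* of 0.43 (edgeR adjusted p = 0.0838) and *Ifi207* of 1.32 (edgeR adjusted p = 0.0495), and *Ifi207* was the 1 member still called.

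**Figure D4:**
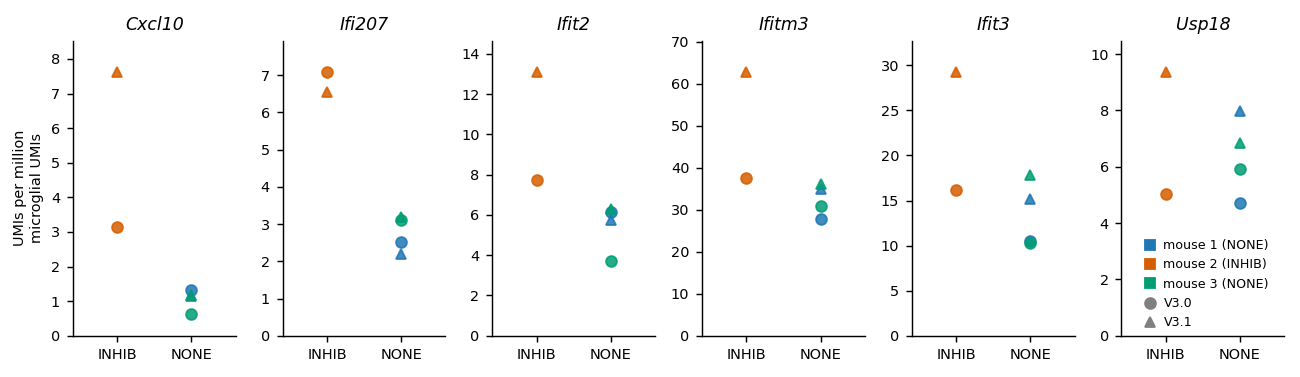
Level in microglia (CPM, linear axes from 0) of *Cxcl10*, *Ifi207*, *Ifit2*, *Ifitm3*, *Ifit3* and *Usp18*, 1 point per library, with the colour for the mouse, circles for V3.0 and triangles for V3.1. Both DNC-INHIB libraries of *Cxcl10* (3.15 and 7.61 CPM) lie above the 4 DNC-NONE libraries (0.622 to 1.33 CPM).

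Border macrophages and neutrophils of the same 3 mice were compared with microglia in 1 fit with the mouse as a block. The fit tested 28 of the 43 members. The other 15 had too few UMIs in these small classes, among them the 4 *Ifit* genes, *Rsad2*, *Usp18* and *Cxcl10*, and a member that is low in microglia could be tested only where another class was high. The counts and rankings therefore cover the tested members only.

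Border macrophages had higher levels of 14 of the 28 tested members (50%), beside 15.4% of all genes, 8.42% higher and 6.97% lower. No member was called lower by edgeR, and the 18 members with an unadjusted p below 0.05 were all higher. The median log2 FC was 1.38 against −0.15 for all genes. With the gate as it was written before the data were seen, 10 of 26 tested members were called, beside 7.57% of all genes. *Ifi207*, *Slfn5*, *Rtp4* and *Lgals3bp* were not among those 10.

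*Ifi207* lay at 239, 365 and 112 CPM in border macrophages of mice 1, 2 and 3 against 2.38, 6.83 and 3.18 CPM in microglia, a log2 FC of 6.22 (SE 0.395). *Ifitm3* lay at 1077, 777 and 822 CPM against 30.9, 49.1 and 35.2 CPM, a log2 FC of 4.82 (SE 0.206), and had a UMI in 83.3% of border macrophages. *Ifi27l2a*, the gene of a small interferon-induced protein, lay at 673, 753 and 523 CPM against 44.3, 48.7 and 44.1 CPM, a log2 FC of 4.17 (SE 0.196). The classes did not overlap for these 3 genes, each higher in 3 of 3 mice, and the edgeR adjusted p was at most 2.41e-53.

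*Samd9l*, a restriction factor gene, lay at 74.8, 103 and 131 CPM against 4.40, 3.30 and 6.47 CPM (log2 FC 4.79, SE 0.460). *Slfn5* lay at 29.9, 127 and 112 CPM against 10.1, 10.7 and 8.76 CPM (log2 FC 3.59, SE 0.487). *Oasl2*, which encodes an oligoadenylate synthetase-like protein, lay at 29.9, 159 and 18.7 CPM against 6.87, 7.10 and 7.51 CPM (log2 FC 3.97, SE 0.510). All 3 were higher in 3 of 3 mice, though *Oasl2* in mouse 2 was far above its level in mice 1 and 3. Few UMIs lay behind some of these levels. In the V3.0 and V3.1 libraries *Oasl2* had 0 and 2 UMIs in mouse 1 and 1 and 0 in mouse 3. *Slfn5* had 1 and 1 in mouse 1. For these genes in these mice the direction is thus not secure.

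*Bst2*, already the most abundant member in microglia, lay at 538, 1395 and 841 CPM in border macrophages against 169, 171 and 176 CPM, a log2 FC of 2.77 (SE 0.173). It had a UMI in 92.6% of border macrophages. *Sp100* (log2 FC 2.83), *Slfn2* (2.42), *Ifi204* (3.16), *Rtp4* (2.00), *Parp14* (1.24) and *Lgals3bp* (0.87, edgeR adjusted p = 0.0274) were also higher. *Lgals3bp* was not called under 8 of the alternatives tried, among them DESeq2 (0.83), total UMIs in place of TMM (0.55), both other gates, and leaving out mouse 2, mouse 3 or the V3.0 library of mouse 3. The call of *Irf7* (log2 FC 2.62, edgeR adjusted p = 0.0144) rested on mouse 2, as all 7 of its UMIs came from 4 cells of that mouse and its level was 0 in mice 1 and 3. Without mouse 2, 9 members were called, and *Oasl2*, *Rtp4*, *Parp14*, *Lgals3bp* and *Irf7* were not among them.

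Among the remaining tested members, *Trim30a* (0.03), *Slfn8* (0.05), *Herc6* (0.01) and *Gbp7* (−0.14) had log2 FCs near 0 in border macrophages. Of 16 pathway genes tested, *Ifnar1* (1.58), *Irf1* (1.32) and *Ifnar2* (0.59) were higher and *Tmem173* (−1.50), the gene of the adaptor STING, and *Tlr3* (−2.29) were lower. Of 17 other interferon-induced genes, *Ifitm2* (6.23), the immunoproteasome subunit gene *Psmb8* (1.01) and *Epsti1* (1.00) were higher. Microglial markers stood at 1147.72 CPM in the border macrophages, 54 cells in all, and their part in these values was not tested. *Ifit2*, *Oas3* and *Cxcl10* had no UMI in border macrophages, which allows up to 12.2 CPM.

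**Figure D5:**
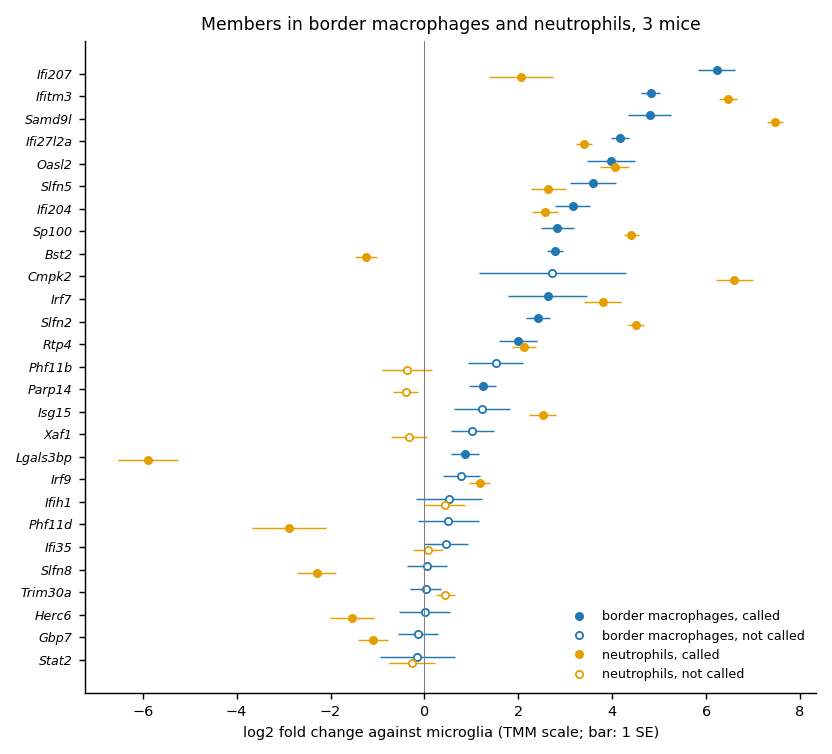
Log2 FC against microglia of the tested members in border macrophages and in neutrophils, with bars of 1 SE and filled points for members called. *Ifitm3* and *Samd9l* are high in both classes (4.82 and 4.79, 6.47 and 7.47), while *Bst2* and *Lgals3bp* lie above 0 in border macrophages and below 0 in neutrophils. *Oas3* is left out because border macrophages had no UMI of it.

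Neutrophils differed from microglia in both directions. Of the 28 tested members 21 were called (75%), 15 higher and 6 lower, beside 66.3% of all genes, of which 30.8% were higher and 35.5% lower. The share of called members was thus near that of all genes. The median log2 FC was 1.62 for the members and −0.19 for all genes.

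Among the tested members, *Oas3*, *Samd9l* and *Cmpk2* rose most. *Oas3* and *Cmpk2*, rare in microglia, could be tested only because they were high in neutrophils, so their rank partly follows from the filter. *Oas3*, which makes the second messenger that activates RNase L, lay at 51.3, 26.0 and 47.3 CPM in neutrophils of mice 1, 2 and 3 and at 0.180, 0.379 and 0.0522 CPM in microglia, 15 UMIs in all, a log2 FC of 8.96 (SE 0.551, edgeR adjusted p = 5.34e-58). *Samd9l* lay at 291, 314 and 256 CPM against 4.40, 3.30 and 6.47 CPM (log2 FC 7.47, SE 0.175) and had a UMI in 72.3% of neutrophils. *Cmpk2* lay at 54.3, 36.4 and 75.2 CPM against 1.30, 1.63 and 1.72 CPM (log2 FC 6.60, SE 0.396). Each of these genes was higher in 3 of 3 mice with no overlap.

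*Ifitm3* lay at 1090, 1190 and 1303 CPM (log2 FC 6.47, SE 0.192) with a UMI in 94.6% of neutrophils, *Slfn2*, which T cells need for quiescence, at 522, 482 and 611 CPM (4.51, SE 0.166) and the nuclear body gene *Sp100* at 160, 180 and 196 CPM (4.41, SE 0.167). *Oasl2* (4.06), *Irf7* (3.79), *Ifi27l2a* (3.40), *Slfn5* (2.64), *Ifi204* (2.56), *Isg15* (2.52), *Rtp4* (2.12), *Ifi207* (2.05) and *Irf9* (1.18) were also higher. In CPM, *Ifi207* overlapped between the classes, at 7.54, 1.73 and 8.60 CPM in neutrophils against 2.38, 6.83 and 3.18 CPM, and was lower in neutrophils of mouse 2. *Ifi207* was not called when mouse 1 or mouse 3 was left out.

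Of the 6 members called lower, 4 were among the 10 most abundant in microglia. *Lgals3bp* lay at 0, 1.73 and 0 CPM in neutrophils, 1 UMI in all, against 99.0, 95.8 and 102 CPM in microglia (log2 FC −5.88, SE 0.638). *Phf11d* lay at 1.51, 1.73 and 0 CPM against 24.0, 25.6 and 24.4 CPM (−2.89, SE 0.791), and *Slfn8* at 6.03, 0 and 10.7 CPM against 70.9, 72.7 and 78.2 CPM (−2.30, SE 0.408). These 3 genes were lower in 3 of 3 mice. *Bst2* lay at 22.6, 13.9 and 45.1 CPM (−1.24, SE 0.235), the ubiquitin ligase gene *Herc6* at 4.52, 3.47 and 8.60 CPM (−1.55, SE 0.465) and *Gbp7* at 21.1, 12.1 and 2.15 CPM (−1.10, SE 0.315).

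The calls, and for some members the direction, depended on the scaling. *S100a8* and *S100a9* take a large part of the neutrophil UMIs, and TMM, the trimmed mean of M-values, scales each sum so that most genes centre on no change. With total UMIs in place of TMM the median log2 FC of all genes moved from −0.19 to −1.72 and the calls of all genes that were higher fell from 46.4% to 13.9%. On that scale 26 members were called, 13 higher and 13 lower, the members' median log2 FC was 0.10 against 1.62, *Irf9* turned to −0.35 (edgeR adjusted p = 0.119) and *Ifi207* (0.54) was no longer called. *Trim30a* (−1.08), *Ifih1* (−1.10) and *Ifi35* (−1.45) also turned below 0 and were called lower. *Stat2*, *Xaf1*, *Phf11b* and *Parp14*, below 0 on both scales, were called lower on that scale only. Among the 16 pathway genes tested, *Ddx58* (1.94), *Jak1* (1.37), *Irf1* (1.32) and *Irf2* (0.98) were higher in the fit with TMM and 9 genes were lower, led by *Tlr3* (−5.23), *Tmem173* (−5.18) and *Irf8* (−4.53). Of 17 other interferon-induced genes, *Ifitm2* (8.22), *Ddx60* (3.97) and *Trim25* (2.34) were higher and *Tor3a* (−2.45), *Ly6e* (−1.94), *Igtp* (−1.87) and *Irgm1* (−0.86) lower.

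Border macrophages and neutrophils were compared directly in the same fit. Of 28 members 16 were called (57.1%, beside 43.7% of all genes, 20.2% higher and 23.5% lower), 9 higher and 7 lower in border macrophages. *Lgals3bp* (log2 FC 6.75, edgeR adjusted p = 8.72e-18), *Ifi207* (4.17, edgeR adjusted p = 5.39e-15) and *Bst2* (4.01, edgeR adjusted p = 5.61e-61) were the members most in excess in border macrophages, followed by *Phf11d* (3.40), *Slfn8* (2.35), *Phf11b* (1.88), *Parp14* (1.64), *Xaf1* (1.35) and *Ifi27l2a* (0.77). *Cmpk2* (−3.87), *Samd9l* (−2.67), *Slfn2* (−2.09), *Ifitm3* (−1.65), *Sp100* (−1.58) and *Isg15* (−1.29) were higher in neutrophils. *Oas3* was at least 3.42-fold higher in neutrophils than the 12.2 CPM that 3 UMIs would give over all border macrophages. With total UMIs in place of TMM 20 members were called, 16 of them higher in border macrophages, *Ifitm3* (−0.45), *Sp100* (−0.37) and *Isg15* (−0.09) were no longer called, and 81.5% of the calls of all genes were higher there against 46.3% with TMM. Without mouse 2, 3 members were called higher in border macrophages and 11 lower.

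The number of members detected per cell was also compared within the other classes. Among neutrophils with a UMI of *Isg15*, *Rtp4* or *Usp18* (35 of 278 thinned cells) the mean number of other members was 5.46, against 2.98 without one. Among border macrophages (10 of 54) it was 8.5 against 5.02, and among microglia (1326 cells) 4.73 against 1.76. In neutrophils *Samd9l* was near level, at 1.19-fold in these cells relative to the others (24 and 140 UMIs). *Oas3* was at 0.694-fold there, from 2 UMIs in these cells and 20 in the others. In border macrophages all 15 *Samd9l* UMIs were in the other cells. The last 2 values rest on too few UMIs in these cells to say whether the gene departs from the mean.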

How the data were processed

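Single-cell 3′ RNA libraries were sequenced on a NextSeq500. The deposited count matrices, 1 per library, hold UMIs per gene and cell that the authors made with Cell Ranger (5.0.0) against mm10 (GRCm38), and reads mapping to more than 1 gene were not counted. The files give *Sting1* as *Tmem173*.

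A barcode was kept if it had between 1000 and 4000 genes, no more than 12000 UMIs and a mitochondrial share up to 15%. Classes were gated by at least 3 own markers, fewer for monocytes. Doublets were limited by the upper limit on UMIs and by refusing cells with 3 or more markers of another class, monocytes excepted. *S100a8* and *S100a9* were not counted for this, and no doublet caller was run. Border macrophages were not refused for microglial markers and only needed more UMIs of their own markers. The microglial marker *P2ry12* had a UMI in 51.9% of them. The gate was amended after the data were seen, because as first written it left 22 border macrophages. It was then run as an alternative. The members, gene lists and thresholds were chosen with earlier results of these data known.

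UMIs were summed per library or per mouse and class, and tested with edgeR (4.0.16, R 4.3.3) with TMM, filterByExpr and the quasi-likelihood test, with Benjamini-Hochberg adjustment over all genes tested. Calls needed an adjusted p under 0.05 together with a log2 FC over 0.58 in size. DESeq2 (1.42.0) was an alternative. The fits were tested on simulated data. For detection, cells were thinned to 2000 UMIs, and ratios were taken for genes with at least 20 UMIs in *Ifit*-positive cells.

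Libraries of a mouse came from the same animal, so mice pair the kits. Their deviations from the kit means correlated at 0.294, 0.418 and 0.123, against −0.298 to −0.00662 between mice. Deviations from a kit mean cancel out over its libraries, so the negative values between mice are not independent of the positive ones. Depth was 905 to 4414 microglia per library, with a median of 3507 UMIs per microglia.

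Values per library were given for the 10 most abundant members, the 4 *Ifit* genes and members called within microglia, and per mouse for up to 6 rises and 6 falls in each class comparison. Other listed genes were named where called or at least 2-fold higher in *Ifit*-positive cells, together with the 10 other genes of largest ratio there. *Bst2* in border macrophages and *Ifit3* between kits were shown after their values were seen. The result of 1 pathway gene is not reported here.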

Additional observations from a re-analysis of the deposited data

Results flagged for a closer look

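In microglia, 5 of 44 sets of library values tested had 1 library far from the others, where chance gives about 1 in 20. *Ifitm3* lay at 62.7 CPM in the V3.1 library of mouse 2 (DNC-INHIB) against 27.8 to 37.6 CPM in the others. *Cxcl10* lay at 7.61 CPM in the same library against 0.622 to 3.15 CPM. *Oasl2* lay at 9.02 CPM, from 29 UMIs, in the V3.0 library of mouse 3 against 6.67 to 7.43 CPM. *Sp100* lay at 34.8 CPM in that library against 21.1 to 25.9 CPM. *Rtp4* lay at 36.4 CPM in the V3.1 library of mouse 1 against 27.9 to 30.5 CPM.

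The difference from microglia went in opposite directions in border macrophages and neutrophils for *Bst2* and *Lgals3bp*, and the difference between the classes itself was called in the same fit. It was a log2 fold change of 4.01 for *Bst2* and 6.75 for *Lgals3bp*, both higher in border macrophages. For *Lgals3bp* the border macrophage side is weak, as its call against microglia was lost under 8 alternatives.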

How the results depend on the processing

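The share of microglia with an *Ifit* UMI was 3.02%, 4.38% without thinning and 2.35% when thinned to 1500 UMIs, 2.93 to 3.12% without 1 mouse, and within 1 SD of the main value under the other alternatives. The count of members at least 2-fold higher stayed within 1.5 times of 32 under all alternatives, from 27 to 35. Between kits 1 member was called, 0 with DESeq2, 3 without the filter on low counts, 4 with the mouse as a replicate block, 0 to 2 without 1 mouse and 0 without microglia with an *Ifit* UMI. Between DNC-INHIB and DNC-NONE 4 were called, 0 with DESeq2, 2 with at least 500 genes per cell, 2 with the stricter gate, 1 in V3.0 libraries alone, 2 in V3.1 libraries alone, 2 without the V3.0 library of mouse 3 and 1 without microglia with an *Ifit* UMI. Leaving out a DNC-NONE mouse left 1 mouse on each side and no test, with 5 to 12 members beyond the fold against 9 with all mice. In border macrophages 14 members were called and 9 to 14 without 1 mouse, and in neutrophils 21 and 20 to 24. With the stricter gate 11 were called in border macrophages, and 10 with the gate as first written. *Irf7* in border macrophages turned to a log2 fold change of −8.07 without mouse 2, since all its UMIs came from that mouse, and reached 3.04 without mouse 1, and *Irf9* in neutrophils to −0.35 with total UMIs in place of TMM. The block changed no other call of the class comparisons against microglia, where leaving it out kept 14 and 21. The cause of the other changes was not tested. The alternatives without microglia with an *Ifit* UMI, without the V3.0 library of mouse 3 outside the inhibitor comparison, with total UMIs and with the first gate were chosen after seeing the data. Border macrophages (54 cells, 246575 UMIs) limit the depth most, as 3 UMIs there are 12.2 CPM.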

Other observations

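Monocytes, 196 cells that entered none of the comparisons, had the highest summed level of the type I interferon response genes of the classes gated. By mouse the members summed to between 9413 and 9922 CPM in monocytes, 3773 and 5770 CPM in border macrophages, 2784 and 3403 CPM in neutrophils, and 1195 and 1305 CPM in microglia. *Ifitm3* carried much of this order, since without it the sums were 4236 to 5292 CPM in monocytes and 2951 to 4993 CPM in border macrophages, which overlapped. *Ifitm3* lay at 5252, 4629 and 5177 CPM in monocytes of mice 1, 2 and 3, with a UMI in 99.5% of them. *Ifi27l2a* lay at 1352, 1453 and 1496 CPM and *Slfn2* at 562, 630 and 615 CPM. The DNA sensor family members *Ifi204* (225, 273 and 261 CPM) and *Ifi207* (251, 296 and 179 CPM) and the sensor gene *Zbp1* (117, 131 and 97.9 CPM) were likewise found in monocytes of each mouse. *Bst2* was lower in monocytes (147, 139 and 196 CPM) than in border macrophages (538, 1395 and 841 CPM). Of the *Cxcl10* UMIs in monocytes, 94 came from 1 cell of mouse 2.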
